A study of Mus musculus with 12 samples.

Results

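The tumour necrosis factor (TNF) superfamily, its receptors and the TRAF adaptor proteins were followed in mouse liver. Members were taken by gene symbol: Tnf, Lta, Ltb, Ltbr, Fas, Fasl, Cd40 and Cd40lg, and every symbol that begins with Tnfsf, Tnfrsf or Tnfaip, or with Traf and a digit. On the arrays 55 of 19084 named genes met this rule, measured by 65 probes. They were 16 ligands, 22 receptors, 6 TRAF genes, 3 genes of TRAF-interacting proteins and 8 Tnfaip genes. The Tnfaip symbol stands for induction by TNF, which was not tested here. Tnfaip8l1, Tnfaip8l2 and Tnfaip8l3 are named for likeness to Tnfaip8. The receptors were 5 with a death domain, 15 others of the signalling kind and 2 decoys. For 10 genes with more than 1 probe the brightest probe was used.

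RNA came from the liver of male C57BL/6 mice in a study of a citrus flavonoid extract in diet-induced fatty liver, whose title names VEGF-C as a predicted target. PTFC mice ate a high-fat diet for 24 weeks and, after the first 6 weeks, received pure total flavonoids from Citrus intragastrically at a daily 50 mg per kg, over 18 weeks. HFD24 mice ate the high-fat diet for 24 weeks, HFD16 mice ate it for 16 weeks, and the ND group had a normal diet over 24 weeks. The high-fat diet held 36.1% fat with 2% added cholesterol, lard, egg yolk powder and bile salt, and the normal diet held 12.3% fat. The ND, HFD16 and HFD24 mice were given saline, and livers were taken after an overnight fast. Mice were 31 to 33 weeks old for the PTFC and HFD24 arrays and ND array 1, and 30 to 32 weeks old for ND arrays 2 and 3. HFD16 mice were 23 to 25 weeks old, so age differs most where HFD16 is compared with ND or HFD24. Each group had 6 mice and 3 arrays. Every array title holds its own code, but the labels do not say that the 3 arrays are separate animals. The p-values therefore measure only how these arrays spread, possibly a technical spread, and the number of arrays limits the precision.

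Ligands of the family are mostly membrane proteins of immune cells, and many act as trimers that cluster their receptors on a neighbouring cell. Receptors without a death domain recruit TRAF adaptors and switch on the transcription factor NF-kB, while receptors with a death domain can also start apoptosis through caspase-8. Decoy receptors bind a ligand and pass on no signal. In liver these pathways are known for the killing of hepatocytes through Fas and the TNF receptor, for Kupffer cell and lymphocyte responses, and for the growth signals of regeneration.

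The arrays had median deposited intensities between 249 and 408. Across genes, which are not independent replicates, the median r was 0.988 within groups (12 pairs of arrays) and 0.980 between groups (54 pairs). On the third principal component ND array 3 lay at -34.1 and its 2 replicates at 10.3 and 19.5. HFD16 array 2 had the highest summed level of 12 monocyte and macrophage markers of all 12 arrays, and HFD16 array 3 a summed level of 6 skeletal muscle markers of 12.66, where the 11 others lay between 8.38 and 9.03. The 10 hepatocyte markers measured summed to 21.07 to 21.15 in PTFC livers, 20.97 to 21.02 in HFD24 livers, 20.93 to 21.08 in HFD16 livers and 21.07 to 21.10 in ND livers on the log2 scale, and of 119 cell type markers measured none was at or below 0 on any array.

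A difference below is a limma estimate on quantile normalized log2(intensity + 1) with its standard error, and a fold is 2 to the power of that difference, in which the added 1 shrinks the fold of the dimmest genes. A gene was called when its two-sided Benjamini-Hochberg adjusted p over all genes was under 0.05. Intensities are the deposited linear values of 1 probe per gene on arrays 1, 2 and 3 of a group, and they are compared only between arrays, not between genes. For a named member, overlap or its absence is stated on the deposited values unless normalization is named, while counts of members or genes whose arrays do not overlap are on the normalized values.

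After quantile normalization more members were called higher than lower in HFD24 and in HFD16 livers against ND livers. In HFD24 against ND livers 17 of 55 members were called, or 30.9%, beside 18.3% of all genes. Of these, 13 were higher, where the background is 10%, and 4 were lower, where it is 8.29%. The 13 higher ones were the ligands Ltb and Tnfsf10, the receptors Tnfrsf11a, Tnfrsf19, Tnfrsf21, Tnfrsf26, Fas and Tnfrsf11b, the adaptor Traf1, and Tnfaip2, Tnfaip3, Tnfaip8 and Tnfaip8l2. The 4 lower ones were Cd40lg, Lta, Tnfrsf10b and, by the brighter of its probes, Cd40. The arrays of the 2 groups did not overlap for 21 members, beside 33.6% of all genes. The median difference over the 55 members was 0.10 on the log2 scale, beside -0.06 over all genes. On the authors' scale without quantile normalization the median of all genes shifted to -0.23 and that of the members to -0.05. There 14 members were called, 10 higher and 4 lower, beside 16.8% of all genes. On that scale 41.4% of all called genes were higher, against 54.7% with quantile normalization. Without ND array 1 the members called numbered 11, of which 10 were higher and 1 lower, beside 9.05% of all genes, and with the array scaling step as a covariate 6 were called, all higher, beside 5.69% of all genes.

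In HFD16 against ND livers 15 members were called, or 27.3%, beside 18.1% of all genes. There 9 members were higher, with a background of 10%, and 6 were lower, with a background of 8.11%. The higher ones were Ltb, Tnfrsf11a, Tnfrsf11b, Tnfrsf19, Tnfrsf21, Tnfaip2, Tnfaip3, Tnfaip8 and Tnfaip8l2, and the lower ones were Cd40lg, Tnfsf9, Tnfrsf12a, Tnfrsf23, Tnfrsf10b and Tnfaip6. Same-numbered arrays of these groups narrowly met a criterion set for pairing, which does not show that they are pairs. With the number as a block 12 members were called, all among the 15, beside 14.5% of all genes. Tnfaip6, Tnfrsf10b and Tnfrsf23 then missed the threshold, with limma adjusted p-values of 0.0745, 0.0799 and 0.0695. The count rested on single arrays. It was 5 without HFD16 array 2 (beside 10.1% of all genes) and 6 without HFD16 array 3 (8.29%). It was 6 without ND array 1 (6.98%) and 9 without ND array 2 (9.91%). When only these 2 groups were fitted it was 5 (12.5%), and with the array scaling step as a covariate 0 (1.15%). Calls over all genes thus fell in these fits too. Both diet comparisons use the same ND arrays, so the values are set side by side and their likeness is not a result. Arrays did not overlap for 23 members, beside 35.8% of all genes. The median over members was 0.16, beside -0.03 over all genes, and on the authors' scale 0.00 beside -0.22. On that scale 7 members were called higher and 7 lower, beside 18.2% of all genes called. Of all called genes 34.6% were higher there, against 55.3% with quantile normalization.

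No member was called between HFD24 and HFD16 livers by limma, where 0.0367% of all genes were called. At an unadjusted p under 0.05 there were 6 of 55 members, beside 1861 of all 19084 genes. The smallest p among members belonged to Tnfrsf1b, with a difference of 0.56 ± 0.22 (limma adjusted p = 0.45). The count stayed at 0 in every alternative fit and whichever array was left out.

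PTFC was set against HFD24 to ask which diet-related levels differed under the extract. In PTFC against HFD24 livers 4 members were called, or 7.27%, beside 5.98% of all genes, so the members' share was near the background. Traf1, Tnfrsf19 and Tnfrsf4 fell, where the background for lower genes is 3.04%, and Tnfrsf10b rose, where that for higher genes is 2.94%. The arrays did not overlap for 20 members, beside 31.1% of all genes. The median difference over members was -0.22, beside 0.01 over all genes, with 36 of 55 differences below 0. These calls depended on the scaling and on single arrays. On the authors' scale the median of all genes shifted to 0.24, that of the members was 0.04, none of the 3 lower calls remained, and 90.4% of the genes called were higher, against 49.2% with quantile normalization. Median centring gave 1 higher and 6 lower members beside 8.45% of all genes, and 37.2% of the genes called were higher. The array scaling step as a covariate gave 2 and 8 (8.68% of all genes), and a fit of these 2 groups alone 1 and 10 (9.15%). The count was 0 without HFD24 array 1 (beside 0.204% of all genes) or without PTFC array 3 (0.0576%). It was 1 without HFD24 array 2 (1.22%), PTFC array 1 (2.45%) or PTFC array 2 (1.85%), and 2 without HFD24 array 3 (2.31%) or HFD16 array 3 (3.36%). It was 7 without ND array 3 (10.3%) and 9 without HFD16 array 1 (7.96%) or HFD16 array 2 (7.23%), so calls over all genes moved as well.

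In PTFC against ND livers 2 members were called, both lower, beside 2.33% of all genes and 1.28% called lower. They were Cd40lg, at -1.14 ± 0.20 (limma adjusted p = 0.0146), and Tnfaip6, at -1.13 ± 0.27 (0.0467). The Cd40lg call was lost without ND array 1 (adjusted p = 0.0685) and without PTFC array 3 (0.0649). None of the 13 members that were higher in HFD24 than in ND livers was called between PTFC and ND livers, which does not show that they were at the ND level. The count of 2 was 0 without ND array 1 (beside 0.335% of all genes) or PTFC array 3 (0.299%). It was 1 without HFD16 array 3 (1.41%), HFD24 array 1 (1.88%), PTFC array 1 (1.1%) or PTFC array 2 (0.776%). It was 4 without HFD16 array 2 (3.26%) and 5 without HFD16 array 1 (3.42%). The differences of the 13 members in PTFC against ND livers lay between -0.11 for Traf1 and 1.34 for Tnfaip8l2.

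**Figure D1:**
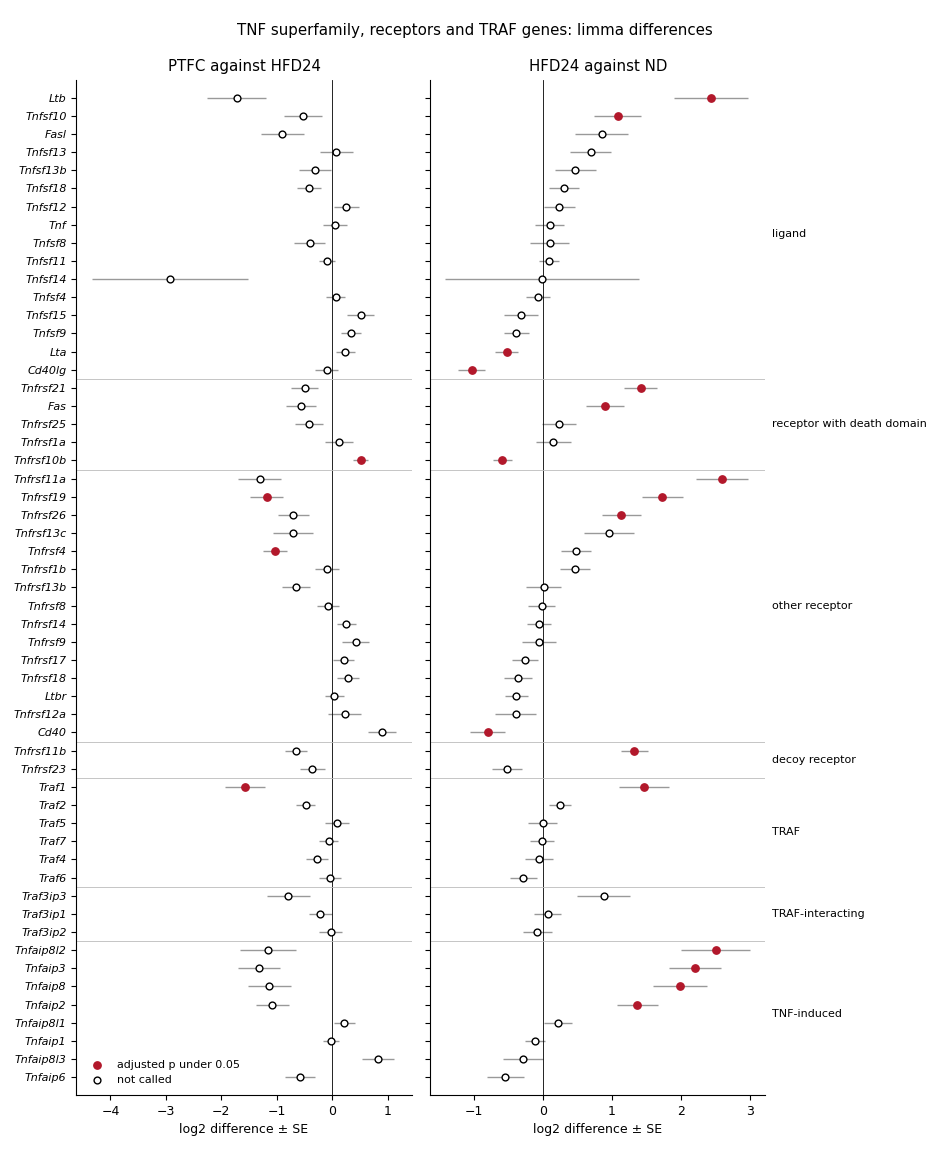
Limma log2 differences with standard errors for the 55 members, PTFC against HFD24 on the left and HFD24 against ND on the right, grouped by role, with filled red points for an adjusted p under 0.05. Ltb, Tnfrsf11a, Tnfaip8l2 and Tnfaip3 lie above 2 on the right and below -1 on the left, where only Traf1, Tnfrsf19, Tnfrsf4 and Tnfrsf10b are filled.

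Among the ligands, lymphotoxin beta and TNF itself lie side by side in the genome and behaved differently. Ltb, Tnf and Lta are neighbours among the protein-coding genes of mouse chromosome 17, and Ltb encodes the membrane anchor of the lymphotoxin heterotrimer that binds the lymphotoxin beta receptor. Their promoters are shown because the neighbouring genes differed in response, with the promoter of Tnfaip3, an NF-kB target gene, and of Tnfrsf9, which holds the same motif and was not called. Each is the 250 bases before an annotated start, 5′ to 3′ on the gene's strand, from RefSeq with build GRCm38.p6. Capitals mark matches to GGGNNTTTC, a core of the NF-kB motif, on either strand (its reverse complement is GAAANNCCC), which was chosen with the members' values known, after a longer and a looser form of the motif had been searched.
Ltb, chr17:35194257-35194506, plus strand: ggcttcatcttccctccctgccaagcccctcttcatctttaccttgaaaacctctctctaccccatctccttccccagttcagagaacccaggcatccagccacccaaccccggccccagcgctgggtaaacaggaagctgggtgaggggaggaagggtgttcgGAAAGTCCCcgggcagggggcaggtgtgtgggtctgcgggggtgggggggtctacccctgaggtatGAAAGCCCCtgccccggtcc
Tnf, chr17:35202008-35202257, minus strand: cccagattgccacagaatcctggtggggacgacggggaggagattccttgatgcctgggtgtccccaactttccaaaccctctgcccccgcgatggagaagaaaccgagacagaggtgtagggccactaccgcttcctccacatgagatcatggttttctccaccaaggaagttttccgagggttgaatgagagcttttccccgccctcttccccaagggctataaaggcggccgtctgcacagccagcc
Lta, chr17:35205352-35205601, minus strand: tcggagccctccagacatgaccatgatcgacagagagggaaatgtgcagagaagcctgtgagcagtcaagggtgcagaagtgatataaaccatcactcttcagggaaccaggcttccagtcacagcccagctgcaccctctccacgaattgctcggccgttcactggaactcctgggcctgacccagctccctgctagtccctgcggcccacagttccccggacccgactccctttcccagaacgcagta
Tnfaip3, chr10:19015411-19015660, minus strand: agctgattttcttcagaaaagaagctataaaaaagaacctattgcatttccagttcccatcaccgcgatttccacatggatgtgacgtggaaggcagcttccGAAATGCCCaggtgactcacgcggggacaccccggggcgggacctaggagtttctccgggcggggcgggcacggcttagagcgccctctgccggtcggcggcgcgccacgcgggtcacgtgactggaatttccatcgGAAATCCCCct
Tnfrsf9, chr4:150927749-150927998, plus strand: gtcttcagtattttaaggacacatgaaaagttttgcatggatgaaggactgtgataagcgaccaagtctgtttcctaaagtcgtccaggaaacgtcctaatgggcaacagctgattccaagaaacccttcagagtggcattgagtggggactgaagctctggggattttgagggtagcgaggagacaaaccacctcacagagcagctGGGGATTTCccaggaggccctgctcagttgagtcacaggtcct

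The Ltb matches, GAAAGTCCC and GAAAGCCCC, begin 86 and 20 bases before the start. Those of Tnfaip3, GAAATGCCC and GAAATCCCC, begin 148 and 11 bases before it, and that of Tnfrsf9, GGGGATTTC, 43 bases before it. The motif was present in 1223 of 32851 promoter windows of this length in the RefSeq table, or 3.72%, and in 4 of the 50 windows that 45 members had there. The 4th was Tnfrsf25, with GAAAAGCCC at 217 bases. Tnfaip3, Tnfrsf9 and Tnfrsf25 each have a second annotated start in the table, and its window, chr10:19011964-19012213 for Tnfaip3, chr4:150919905-150920154 for Tnfrsf9 and chr4:152116093-152116342 for Tnfrsf25, holds no match. The Tnf and Lta windows hold no match, which says only that these letters are not in this window. Of the 4 members with a match, Ltb and Tnfaip3 were called higher in HFD24 livers, while Tnfrsf9 differed by -0.06 (limma adjusted p = 0.897) and Tnfrsf25, a death-domain receptor of T cells, by 0.23 (0.56). A match is a description of the sequence and not of binding.

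Ltb had intensities of 907, 733 and 663 in PTFC livers, 2064, 2065 and 2499 in HFD24 livers, 449, 4859.8 and 1399 in HFD16 livers and 373, 463 and 449.9 in ND livers. The 3 HFD24 arrays lay above every PTFC and ND array, and HFD16 array 2 was the highest of all 12 while HFD16 array 1 lay among the ND values on the deposited scale. Ltb rose 5.42-fold in HFD24 against ND livers (log2 difference 2.44 ± 0.53, limma adjusted p = 0.00766) and 3.73-fold in HFD16 against ND livers (1.90 ± 0.53, 0.0273). The HFD16 call was lost without HFD16 array 2 (adjusted p = 0.0603), HFD16 array 3 (0.071), ND array 1 (0.0993) or ND array 2 (0.0686). Against HFD24 livers the PTFC difference was -1.72 ± 0.53 and missed the threshold (adjusted p = 0.0716), although the arrays of these groups did not overlap. Ltb was called there in 5 alternatives, for example with the array scaling step as a covariate (0.0164).

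Tnf had intensities of 710.1, 528 and 943 in PTFC livers, 473, 533 and 744 in HFD24 livers, 451, 795 and 539.6 in HFD16 livers and 666, 634 and 456 in ND livers. The 4 groups overlapped throughout. The difference was 0.10 in HFD24 against ND livers, with a 95% confidence interval of -0.36 to 0.56, and 0.04 in PTFC against HFD24 livers, with an interval of -0.41 to 0.50. Lta, the soluble lymphotoxin subunit, had 194, 141 and 183 in PTFC livers, 69.4, 133 and 119.6 in HFD24 livers, 108, 124.9 and 97.4 in HFD16 livers and 234, 172 and 156 in ND livers. Its HFD24 values were below all ND values, and the gene fell by 0.52 on the log2 scale in HFD24 against ND livers (limma adjusted p = 0.0453). That call was lost in 14 of 21 alternatives, among them the fit without ND array 1 (0.192) and without HFD24 array 1 (0.149).

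Cd40lg, the ligand that activated T cells use to stimulate B cells and macrophages through Cd40, was lower in all 3 groups on the high-fat diet than in ND livers. Its intensities were 580.3, 618 and 590.1 in PTFC livers, 521, 539.5 and 517 in HFD24 livers, 632, 520.5 and 775 in HFD16 livers and 1199.6, 1002 and 1229 in ND livers. Every ND array lay above the 9 others. The log2 difference was -1.03 ± 0.20 in HFD24 against ND livers (limma adjusted p = 0.00411) and -0.75 ± 0.20 in HFD16 against ND livers (0.023), and PTFC differed from HFD24 by -0.11 (0.793). The HFD16 call was lost without ND array 1 (0.0745) and without HFD16 array 2 (0.0874). Of 15 T and NK cell markers, 5 were called higher in HFD24 against ND livers and none lower, or 33.3% beside 18.3% of all genes. The other 10 were not called, and 2 of the 15 differences were below 0.

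The death ligands Tnfsf10 (TRAIL) and Fasl, are both made by T and NK cells, and only Tnfsf10 was called, in HFD24 against ND livers. Tnfsf10 had 399.9, 272 and 401 in PTFC livers, 479, 416 and 329 in HFD24 livers, 179.9, 676 and 388 in HFD16 livers and 218, 201 and 239.8 in ND livers. HFD24 values exceeded all ND values and overlapped with PTFC values, and Tnfsf10 rose 2.12-fold in HFD24 against ND livers (limma adjusted p = 0.0436), a call lost in 11 of 21 alternatives, with adjusted p = 0.165 without HFD24 array 1. Fasl had 119, 124 and 110.2 in PTFC livers, 162, 151 and 164 in HFD24 livers, 79.1, 439 and 146 in HFD16 livers and 117, 112.1 and 101 in ND livers. Its HFD24 arrays lay above every PTFC and ND array and HFD16 array 2 was the highest of the 12, but neither the HFD24 difference from ND, 0.85 (limma adjusted p = 0.145), nor the PTFC difference from HFD24, -0.90 (limma adjusted p = 0.17), passed the test.

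Tnfsf9 (4-1BB ligand), a costimulator carried by antigen-presenting cells, had 949.6, 772 and 1011 in PTFC livers, 429, 768 and 666 in HFD24 livers, 448, 475 and 366 in HFD16 livers and 992, 955 and 619 in ND livers. Its 3 HFD16 values were below all ND values and below all PTFC values, and the gene fell by 0.84 on the log2 scale in HFD16 against ND livers (limma adjusted p = 0.00957). In HFD24 against ND livers the difference was -0.38 (0.163). The 9 ligands not yet named, the B cell factors Tnfsf13b (BAFF) and Tnfsf13 (APRIL), Tnfsf11 (RANKL), Tnfsf12 (TWEAK), Tnfsf15, and the T cell costimulators Tnfsf4, Tnfsf8, Tnfsf14 and Tnfsf18, were called in none of the 5 comparisons. By the brightest probes their differences in HFD24 against ND livers lay between -0.32 for Tnfsf15 and 0.69 for Tnfsf13. The dimmer Tnfsf15 probe went the other way, at 0.59 (limma adjusted p over all probes = 0.126). Against HFD24 livers the PTFC differences of these ligands lay between -0.42 and 0.51 apart from Tnfsf14, named after its values were seen. Its intensities were -10.5, 262 and 198 in PTFC livers, 156, 275 and 279 in HFD24 livers, 169.5, 209 and 154 in HFD16 livers and 274, 285 and 257 in ND livers, and 1 PTFC array below 0, which was set to 0, carried its difference of -2.94 ± 1.41 (0.221).

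**Figure D2:**
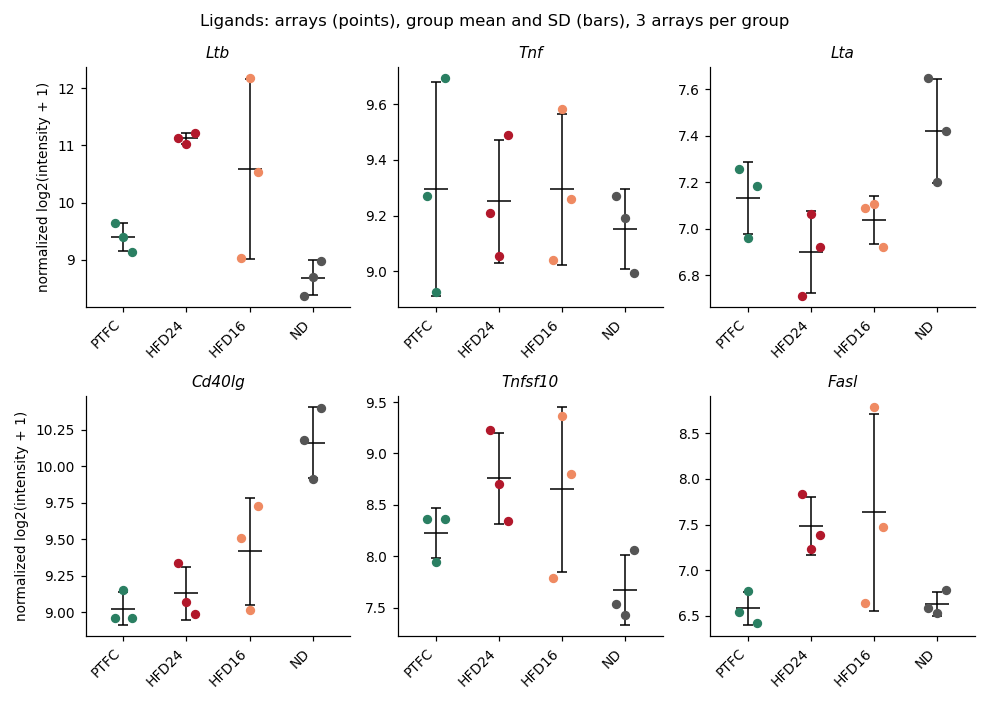
Normalized log2(intensity + 1) of 6 ligands on each array (points), with the mean and SD of the 3 arrays of a group (bars), for PTFC, HFD24, HFD16 and ND livers. Ltb averaged 11.12 ± 0.10 in HFD24 and 8.68 ± 0.30 in ND livers, the Tnf groups overlap, the 3 ND arrays are the highest for Cd40lg, and HFD16 array 2 is the top point for Ltb, Tnfsf10 and Fasl.

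Of the 5 receptors with a death domain, 3 were called in HFD24 against ND livers: Tnfrsf21 and Fas rose and Tnfrsf10b fell. Tnfrsf1a, the main TNF receptor of parenchymal cells, had 12531, 19496 and 16504 in PTFC livers, 17330.1, 10646 and 14600.3 in HFD24 livers, 13219, 19819 and 15528 in HFD16 livers and 13122, 17546 and 8922 in ND livers. Its groups overlapped, and the HFD24 difference from ND was 0.15, with a 95% confidence interval of -0.40 to 0.70. Fas, the receptor of Fas ligand on hepatocytes and lymphocytes, had 1374, 1141 and 1176 in PTFC livers, 1978, 2023 and 1148 in HFD24 livers, 1152, 853 and 1329.6 in HFD16 livers and 876, 811 and 1037 in ND livers. Every deposited HFD24 value exceeded the ND values, the groups overlapped after normalization, and Fas rose 1.87-fold in HFD24 against ND livers (limma adjusted p = 0.0366). The call was lost without HFD24 array 1 (adjusted p = 0.143), HFD24 array 2 (0.109), ND array 1 (0.121) or ND array 2 (0.131).

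Tnfrsf10b, the mouse receptor of TRAIL, was called in the opposite direction to its ligand in HFD24 against ND livers. Its intensities were 354, 329 and 352 in PTFC livers, 151, 197 and 204 in HFD24 livers, 193, 220.1 and 183 in HFD16 livers and 385, 345 and 249.7 in ND livers. The HFD24 and HFD16 values lay below every PTFC and ND value. The gene differed by -0.59 ± 0.14 in HFD24 against ND livers (limma adjusted p = 0.0104) and by -0.42 ± 0.14 in HFD16 against ND livers (0.046), and it rose in PTFC against HFD24 livers, by 0.51 ± 0.14 (0.0451), or 1.42-fold. The PTFC call lay close to the threshold: it was lost in 14 of 21 alternatives, and in each of the 6 fits without 1 PTFC or HFD24 array, with adjusted p-values up to 0.162 without PTFC array 3. The HFD24 call was lost without ND array 1 (0.0578). The HFD16 call was lost in 15 of 21 alternatives, among them the replicate block (0.0799), and without ND array 1 (0.178), ND array 2 (0.106) or any 1 HFD16 array (up to 0.14).

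Tnfrsf21 (DR6), a death-domain receptor with roles in T and B cell responses in mice, had 2685, 3967 and 3277 in PTFC livers, 4093, 4389 and 4642 in HFD24 livers, 1887, 4867 and 2739.9 in HFD16 livers and 1648, 1716 and 1568 in ND livers. Every HFD24, HFD16 and PTFC value was above every ND value. The gene rose 2.68-fold in HFD24 against ND livers (limma adjusted p = 0.00223), a call kept in all 21 alternatives, and 1.79-fold in HFD16 against ND livers (0.031). The HFD16 call was lost without HFD16 array 2 (0.1), HFD16 array 3 (0.0718), ND array 1 (0.096) or ND array 2 (0.0763), and in a fit of HFD16 and ND alone with the replicate block (0.0507). The PTFC difference from HFD24 was -0.50 (0.228).

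Among the receptors without a death domain, Tnfrsf11a and Tnfrsf19 were called higher in both HFD24 and HFD16 against ND livers. Tnfrsf11a encodes RANK, the receptor of RANKL on macrophages, dendritic cells and osteoclast precursors, and Tnfrsf11b encodes osteoprotegerin, the secreted decoy for RANKL. Tnfrsf11a had 91.6, 101 and 79.3 in PTFC livers, 173, 192 and 129.9 in HFD24 livers, 49.9, 146 and 123 in HFD16 livers and 26.4, 30.8 and 48.2 in ND livers. The 3 ND values were the lowest of the 12 and lay under the 25th percentile of their arrays. Whether they exceed background was not tested, so the size of the differences from ND is uncertain. Tnfrsf11a rose by 2.60 ± 0.38 on the log2 scale in HFD24 against ND livers (limma adjusted p = 0.00114) and by 1.93 ± 0.38 in HFD16 against ND livers (0.00613). Its PTFC difference from HFD24 was -1.31 ± 0.38 (0.0582), without overlap of the arrays and short of the threshold.

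Tnfrsf11b had 415, 407 and 358 in PTFC livers, 549, 568 and 386 in HFD24 livers, 368, 383 and 312 in HFD16 livers and 243, 253 and 182 in ND livers. All values on the high-fat diet, PTFC included, exceeded the ND values. The decoy rose 2.51-fold in HFD24 and 1.88-fold in HFD16 against ND livers (limma adjusted p = 0.00115 and 0.00896), and its PTFC difference from HFD24 was -0.66 (limma adjusted p = 0.0634). Their ligand Tnfsf11 differed by 0.09 in HFD24 against ND livers (limma adjusted p = 0.692). The other decoy, Tnfrsf23, a mouse receptor that binds TRAIL, was called lower in HFD16 against ND livers, at -0.70 ± 0.22 (limma adjusted p = 0.0453), and that call was lost in 13 of 21 alternatives, among them the block above and the fit without HFD16 array 1 (0.132).

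Tnfrsf19 (TROY), an orphan receptor known from hair follicle, brain and intestinal stem cells, had 678, 829 and 679 in PTFC livers, 1699, 822 and 2157 in HFD24 livers, 1447, 1588 and 1462 in HFD16 livers and 530.2, 572 and 300.3 in ND livers. The HFD24 and HFD16 values lay above every ND value, and HFD24 array 2 was within the deposited PTFC range. Tnfrsf19 rose 3.33-fold in HFD24 and 3.55-fold in HFD16 against ND livers (limma adjusted p = 0.00222 and 0.00276), and the first call held in all 21 alternatives. It fell in PTFC against HFD24 livers, with a difference of -1.19 ± 0.30 (0.0379). The PTFC call was lost on the authors' scale (0.0621), and without HFD24 array 1 (0.131), HFD24 array 3 (0.106), HFD16 array 3 (0.0559), PTFC array 1 (0.0889), PTFC array 2 (0.0587) or PTFC array 3 (0.17).

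Tnfrsf4 (OX40), a costimulatory receptor of activated T cells, had 337, 341 and 309 in PTFC livers, 550.1, 623 and 438 in HFD24 livers, 348, 776 and 467 in HFD16 livers and 456, 418 and 388 in ND livers. All HFD24 values exceeded the PTFC values and overlapped with the ND values. It fell 2.05-fold in PTFC against HFD24 livers (log2 difference -1.03 ± 0.22, limma adjusted p = 0.0253), and its HFD24 difference from ND was 0.48 (limma adjusted p = 0.154). The PTFC call was lost on the authors' scale (0.0878) and without HFD24 array 1 (0.0915), HFD24 array 2 (0.0704), PTFC array 1 (0.0557) or PTFC array 3 (0.133).

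Tnfrsf26, a mouse member of the family whose gene lies near Tnfrsf23, had 157, 139.5 and 164 in PTFC livers, 185, 179.8 and 178 in HFD24 livers, 71.8, 174 and 115 in HFD16 livers and 85, 99.8 and 126 in ND livers. The HFD24 values were above all PTFC and ND values. It rose 2.2-fold in HFD24 against ND livers (limma adjusted p = 0.0153), a call lost without HFD24 array 1 (0.0684), ND array 1 (0.0774) or ND array 2 (0.0615). The second TNF receptor Tnfrsf1b, found mainly on immune cells, had 2498, 3632 and 3334 in PTFC livers, 3523, 2910.1 and 3076 in HFD24 livers, 1640.3, 3232 and 1772 in HFD16 livers and 2068, 2509.6 and 2359 in ND livers. HFD24 values exceeded ND values in every array and overlapped with PTFC values, and the difference from ND was 0.47 (limma adjusted p = 0.161). Ltbr, the receptor of the lymphotoxin heterotrimer on stromal and parenchymal cells, had 9792, 13466 and 12367 in PTFC livers, 12272, 10069 and 10676 in HFD24 livers, 12324, 11014 and 14256 in HFD16 livers and 15745, 15759.9 and 12453 in ND livers. The HFD24 values were below the ND values, at a difference of -0.38 (limma adjusted p = 0.136), so neither receptor passed the test.

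Cd40, the receptor of Cd40lg on B cells, macrophages and endothelium, depended on the probe. The brighter probe had 1179.6, 1337 and 1809.6 in PTFC livers, 583, 755 and 677 in HFD24 livers, 949.6, 1237 and 994 in HFD16 livers and 1528, 1684 and 681 in ND livers. The HFD24 values lay below every PTFC value, while ND array 3 overlapped with them on the deposited scale. On this probe Cd40 differed by -0.80 ± 0.25 in HFD24 against ND livers (limma adjusted p = 0.0444), called in 7 of 21 alternatives, and by 0.90 in PTFC against HFD24 livers (0.0545).

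The dimmer Cd40 probe had 104, 100.2 and 102 in PTFC livers, 106, 113.5 and 119 in HFD24 livers, 104, 70.9 and 78.6 in HFD16 livers and 49.8, 48 and 80.3 in ND livers. It ran the other way, with HFD24 above every ND array. Its difference was 1.33 in HFD24 against ND livers (limma adjusted p over all probes = 0.00683), 0.99 in HFD16 against ND livers (0.031) and -0.64 in PTFC against HFD24 livers (0.192), so no direction is given for Cd40. Which probe measures Cd40 RNA was not tested.

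Tnfsf13, named after its values were seen, also had probes that differed. Its dimmer probe had 245, 235 and 205 in PTFC livers, 253, 386 and 261 in HFD24 livers, 157, 214 and 189 in HFD16 livers and 158, 160.2 and 156 in ND livers. The HFD24 values were the highest, and the probe differed by 1.16 in HFD24 against ND livers (limma adjusted p over all probes = 0.00156) and by -0.78 in PTFC against HFD24 livers (0.032). The brighter probe, used for the gene, had 1634, 835 and 970.2 in PTFC livers, 870.4, 895 and 1026 in HFD24 livers, 769, 676 and 767 in HFD16 livers and 596, 448 and 835 in ND livers. It differed by 0.69 (0.123) and 0.07 (0.914) in the same comparisons.

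**Figure D3:**
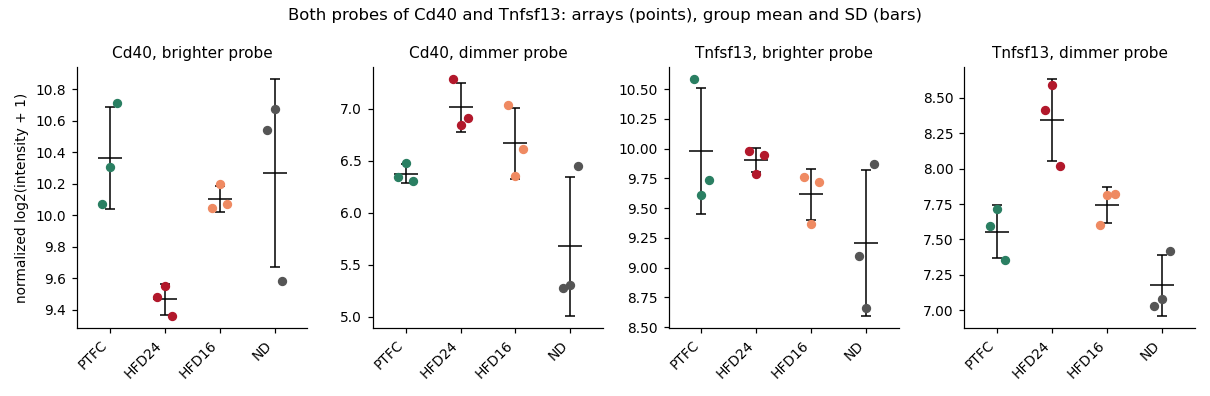
Normalized log2(intensity + 1) of the brighter and dimmer probes of Cd40 and Tnfsf13 on each array (points), with the mean and SD of the 3 arrays of a group (bars), for PTFC, HFD24, HFD16 and ND livers. The HFD24 arrays are the lowest for the brighter Cd40 probe and above every ND array for the dimmer one, and the dimmer Tnfsf13 probe is highest in HFD24 livers.

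Of the receptors without a death domain not yet described, none was called in HFD24 against ND livers. They ranged from -0.39 for Tnfrsf12a, the TWEAK receptor, to 0.95 for Tnfrsf13c, the BAFF receptor of B cells (limma adjusted p = 0.0842). Between them lay Tnfrsf18 (GITR) at -0.36, Tnfrsf17 (BCMA) at -0.26, Tnfrsf9 (4-1BB) at -0.06, Tnfrsf14 (HVEM) at -0.05, Tnfrsf8 (CD30) at -0.02 and Tnfrsf13b (TACI) at 0.01. The dimmer Tnfrsf18 probe went the other way, at 0.58 (limma adjusted p over all probes = 0.241). Tnfrsf12a was called lower in HFD16 against ND livers, at -1.04 ± 0.30 (limma adjusted p = 0.0302), and its other probe was called in the same direction. That call was lost without ND array 3 (0.0783), HFD16 array 2 (0.101) or HFD16 array 3 (0.0578).

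By the brightest probes Traf1 was the 1 TRAF gene of 6 that was called, and it was called in both main comparisons. TRAF1 is an adaptor of TNFR2, CD40 and 4-1BB signalling whose gene is induced by NF-kB. Its intensities were 297, 179 and 189.5 in PTFC livers, 378, 587 and 555 in HFD24 livers, 157, 741 and 397 in HFD16 livers and 255, 197 and 177 in ND livers. The HFD24 values were above every PTFC and ND value, and HFD16 arrays ranged from the lowest to the highest of the 12. Traf1 rose 2.76-fold in HFD24 against ND livers (log2 difference 1.47 ± 0.36, limma adjusted p = 0.0136), and fell 2.99-fold in PTFC against HFD24 livers (-1.58 ± 0.36, 0.0293). PTFC and ND livers differed by -0.11 (0.931). The first call was lost without ND array 2 (0.055). On the authors' scale neither call passed (adjusted p = 0.0552 and 0.0796). The PTFC call was lost without HFD24 array 1 (0.0827), 2 (0.0755) or 3 (0.0639) and without PTFC array 2 (0.0707) or 3 (0.147).

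Traf2, the adaptor that links both TNF receptors to NF-kB and JNK, had 49.6, 55.6 and 64.9 in PTFC livers, 42.8, 57.3 and 69.2 in HFD24 livers, 54.1, 60.8 and 50.3 in HFD16 livers and 71.8, 65.3 and 50.7 in ND livers. All 12 values lie below the 25th percentile of their arrays, and the deposited values of the groups overlapped. After normalization the HFD24 arrays lay above the ND and PTFC arrays without overlap, with a difference of 0.25 in HFD24 against ND livers (limma adjusted p = 0.323) and -0.48 in PTFC against HFD24 livers (0.0968). Traf4, Traf5, Traf6 and Traf7 differed by -0.06, 0.00, -0.28 and -0.01 in HFD24 against ND livers and were called in no comparison. The other, dimmer probe of Traf5 was called higher in HFD16 against ND livers, at 0.62 (limma adjusted p over all probes = 0.0429), and was at 0.56 in HFD24 against ND livers (0.0645) and -0.68 in PTFC against HFD24 livers (0.056). Its intensities were 274, 184.9 and 199 in PTFC livers, 183, 281 and 335 in HFD24 livers, 253, 334 and 221 in HFD16 livers and 211, 198 and 220.0 in ND livers, so that HFD24 array 1 was the lowest of the 12 on the deposited scale. Traf6 is shared by CD40, RANK and Toll-like receptors. Of the TRAF-interacting genes, Traf3ip3, which is expressed in lymphocytes, differed by 0.88 (0.129), Traf3ip2, the adaptor of the IL-17 receptor, by -0.08 and the ciliary gene Traf3ip1 by 0.07, and none of the 3 was called in any comparison.

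Of the 8 Tnfaip genes, 4 were called higher in HFD24 against ND livers, and the same 4, with Tnfaip6 lower, in HFD16 against ND livers. Tnfaip3 encodes A20, a ubiquitin-editing enzyme that NF-kB induces and that restrains NF-kB. Its intensities were 905, 787 and 819 in PTFC livers, 1379, 1861 and 2411 in HFD24 livers, 427, 2268 and 808 in HFD16 livers and 431, 493 and 349 in ND livers. The HFD24 values exceeded every PTFC and ND value, all PTFC values exceeded all ND values, and HFD16 array 1 lay within the ND values. Tnfaip3 rose 4.6-fold in HFD24 against ND livers (log2 difference 2.20 ± 0.38, limma adjusted p = 0.00222), a call kept in all 21 alternatives. It differed by 1.28 ± 0.38 in HFD16 against ND livers (0.0334), a call lost without HFD16 array 2 (0.0771), HFD16 array 3 (0.0707) or any 1 ND array (up to 0.102). The PTFC difference from HFD24 was -1.33 ± 0.38 (0.0548), called in 6 alternatives.

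Tnfaip2, an NF-kB target first found in endothelium and also expressed in myeloid cells, had 2030.0, 1957 and 1915 in PTFC livers, 3690.4, 3179 and 4954 in HFD24 livers, 1967, 5945 and 3714 in HFD16 livers and 1208, 1645 and 1789.6 in ND livers. HFD24 values lay above all PTFC and ND values. It rose 2.58-fold in HFD24 against ND livers (limma adjusted p = 0.00792) and 2.34-fold in HFD16 against ND livers (0.0158). The HFD16 call was lost without HFD16 array 2 (0.0554), HFD16 array 3 (0.056) or ND array 1 (0.074). The PTFC difference from HFD24 was -1.08 ± 0.30 (0.051), which just missed the threshold and was called in 8 alternatives.

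Tnfaip8 and Tnfaip8l2 (TIPE2) belong to a family of lipid-binding proteins, and Tnfaip8l2 is known in mice as a restraint on immune cell activation. Tnfaip8 had 284, 371 and 297 in PTFC livers, 755, 601 and 373 in HFD24 livers, 215, 923 and 445 in HFD16 livers and 146, 198 and 141 in ND livers. The HFD24 and HFD16 values lay above every ND value, and every HFD24 value was above the PTFC values. Tnfaip8 rose 3.97-fold in HFD24 and 3.35-fold in HFD16 against ND livers (limma adjusted p = 0.00435 and 0.0105), and differed by -1.14 in PTFC against HFD24 livers (0.0958). Tnfaip8l2 had 184, 305 and 203 in PTFC livers, 588, 431 and 235 in HFD24 livers, 71.8, 468 and 216 in HFD16 livers and 86.4, 97.3 and 65.5 in ND livers. The HFD24 and PTFC values lay above every ND value and overlapped with each other, and 2 of the 3 ND values were below the 25th percentile of their arrays. Tnfaip8l2 rose 5.68-fold in HFD24 against ND livers (0.00489), and its 3.02-fold rise in HFD16 against ND livers (0.043) was lost in 13 of 21 alternatives, for example without HFD16 array 2 (0.154).

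Tnfaip6 (TSG-6), a hyaluronan-binding protein secreted in inflammation, had 64.9, 79.6 and 49.4 in PTFC livers, 46.6, 84.3 and 77.8 in HFD24 livers, 47.8, 52.7 and 55.5 in HFD16 livers and 137.7, 94.9 and 157 in ND livers. The ND values were the 3 highest, and 7 of the 9 values on the high-fat diet lay below the 25th percentile of their arrays. It differed by -0.84 ± 0.27 in HFD16 against ND livers (limma adjusted p = 0.0467) and by -0.55 in HFD24 against ND livers (0.178). Its calls against ND lay close to the threshold and were lost in 12 of 20 alternatives for HFD16 and 14 of 20 for PTFC, in both without ND array 1 (0.117 and 0.15). Tnfaip1, Tnfaip8l1 and Tnfaip8l3 differed by -0.11, 0.22 and -0.29 in HFD24 against ND livers and were called in no comparison. The dimmer Tnfaip8l1 probe went the other way there, at -0.36 (limma adjusted p over all probes = 0.169).

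**Figure D4:**
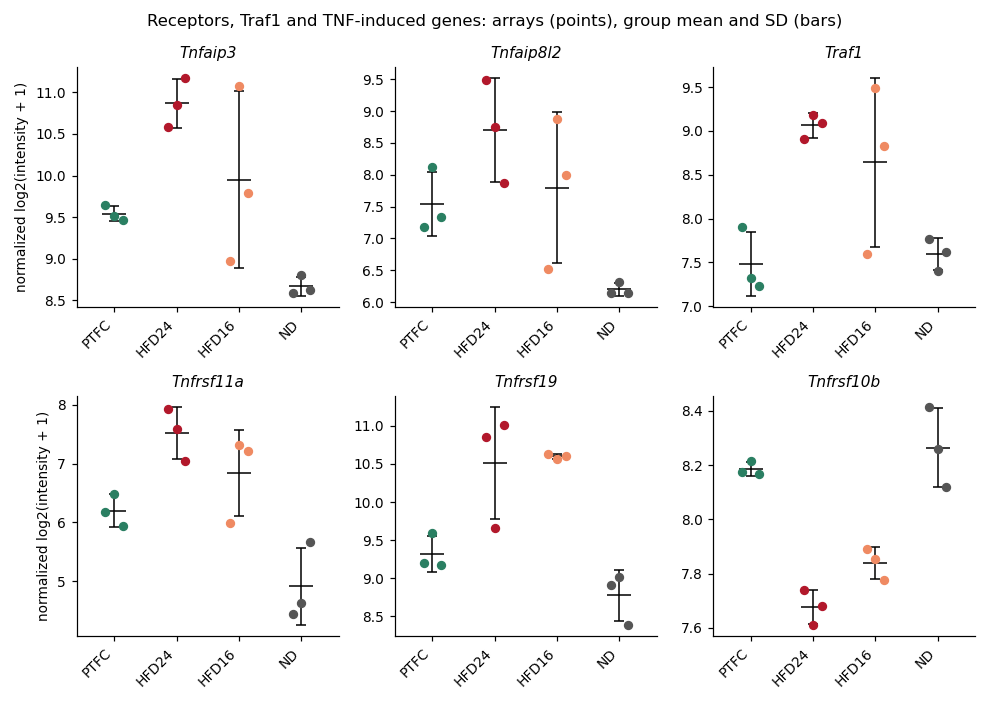
Normalized log2(intensity + 1) of Tnfaip3, Tnfaip8l2, Traf1, Tnfrsf11a, Tnfrsf19 and Tnfrsf10b on each array (points), with the mean and SD of the 3 arrays of a group (bars), for PTFC, HFD24, HFD16 and ND livers. Tnfaip3 averaged 9.54 ± 0.09 in PTFC, 10.87 ± 0.29 in HFD24 and 8.67 ± 0.11 in ND livers, HFD16 array 2 lies far above HFD16 array 1 for Tnfaip3, Tnfaip8l2 and Traf1, and Tnfrsf10b is lowest in HFD24 livers.

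HFD16 array 2 was the highest of the 3 HFD16 arrays for 34 of 55 members, or 61.8%, and for 35.6% of all genes. Among the 13 members called higher in HFD24 against ND livers it was the highest for 10. That array also had the smallest scaling step of the 12, at 0.675, where the others lay between 0.855 and 1.46, and the ND arrays had the 3 largest steps, from 1.23 to 1.46. The step is the amount of which nearly all values of an array are whole multiples.

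Markers of immune and stromal cells were counted in the same way. In HFD24 against ND livers 10% of all genes were called higher and 8.29% lower. In HFD24 against ND livers all 12 monocyte and macrophage markers measured were called higher, 7 of 10 Kupffer cell markers, 6 of 8 dendritic cell markers, 5 of 15 T and NK cell markers, 7 of 12 endothelial markers and 10 of 12 stellate cell and fibroblast markers (1 of these 12 was lower), while of the 10 hepatocyte markers none was called higher and 1 lower. Of the other lists, 4 of 9 neutrophil, 3 of 9 B and plasma cell, 1 of 6 adipocyte, 0 of 6 cholangiocyte, 0 of 6 skeletal muscle and 0 of 4 pancreas markers were called higher, and 1, 2, 0, 2, 0 and 2 of them lower. The summed log2 level of the monocyte and macrophage markers was 15.37 to 15.81 in PTFC livers, 16.35 to 16.88 in HFD24 livers, 14.59 to 17.06 in HFD16 livers and 13.69 to 14.30 in ND livers. That of the Kupffer cell markers was 16.36 to 16.56 in PTFC livers, 16.83 to 17.40 in HFD24 livers, 15.88 to 17.11 in HFD16 livers and 15.14 to 15.96 in ND livers, and that of the T and NK cell markers 12.59 to 12.75 in PTFC livers, 13.28 to 13.39 in HFD24 livers, 12.66 to 14.23 in HFD16 livers and 12.43 to 12.59 in ND livers. Between PTFC and HFD24 livers 3.04% of all genes were called lower in PTFC and 2.94% higher. Lower in PTFC livers were 2 of 12 monocyte and macrophage, 2 of 8 dendritic cell, 2 of 15 T and NK cell and 3 of 12 stellate cell and fibroblast markers. Of the other lists 1 of 9 neutrophil markers was called lower, 1 of 9 B and plasma cell markers lower and 1 higher, and 1 of 6 cholangiocyte and 1 of 6 adipocyte markers higher. No Kupffer cell, endothelial, hepatocyte, skeletal muscle or pancreas marker was called. The summed level of the 6 adipocyte markers was 15.01 to 15.15 in PTFC livers, 14.19 to 14.81 in HFD24 livers, 12.63 to 13.89 in HFD16 livers and 13.08 to 13.71 in ND livers, so every PTFC array was above every HFD24 array. This sum of linear values mostly follows Cidec, with mean log2 levels of 14.89 in PTFC, 14.13 in HFD24 and 12.91 in ND livers. Fabp4, the next brightest, was at 11.59, 11.86 and 10.67. In HFD24 against ND livers 4 of the 6 differences were below 0, and in PTFC against HFD24 livers 1. The part of the cell types in the members' differences was not tested. In bulk liver, fewer cells of a type and less RNA per cell cannot be told apart.

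Downstream of the receptors, the NF-kB system was described with lists drawn up with earlier results of these data known. Of 13 measured NF-kB subunits, inhibitors and kinases, 3 were called higher and 1 lower in HFD24 against ND livers, or 30.8% beside 18.3% of all genes, with a median difference of 0.27 beside -0.06 over all genes. Nfkbie, an inhibitor induced by NF-kB, was higher by 2.12 (limma adjusted p = 0.000412), Nfkb2, the precursor subunit of the alternative pathway that lymphotoxin, CD40 and RANK use, by 1.26 (0.00138) and its partner Relb by 1.58 (0.0165), while the inhibitor Nfkbib differed by -0.74 (0.0334). Between PTFC and HFD24 livers 4 were called lower in PTFC and none higher, or 30.8% beside 5.98%, with a median of -0.51. Nfkb2 differed by -1.33 ± 0.19 (0.0099) and Nfkbie by -1.59 ± 0.26 (0.0146), and the others, named after their values were seen, were Nfkbiz, at -1.08 (0.0325), and Rela, at -0.55 (0.0401). How the calls of genes on this and the later lists held in the alternatives is not given here. Over all genes the calls between PTFC and HFD24 livers fell from 1142 to 39 without HFD24 array 1 and to 11 without PTFC array 3. On the authors' scale 90.4% of the genes called there were higher in PTFC livers.

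**Figure D5:**
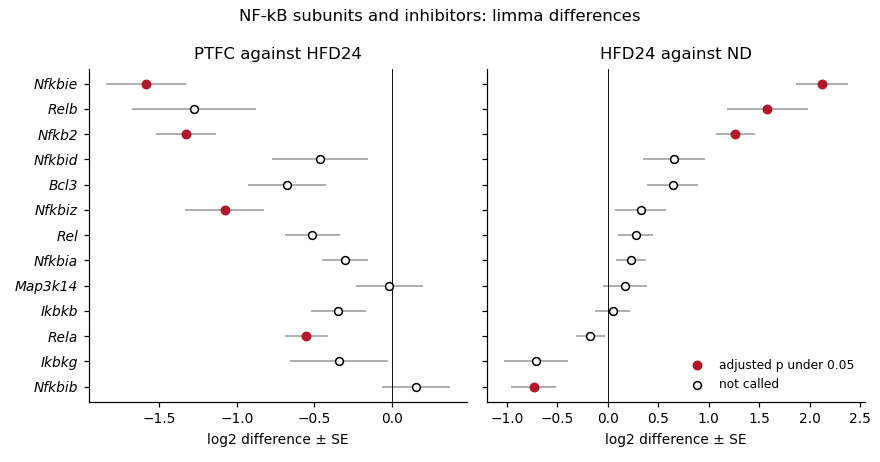
Limma log2 differences with standard errors for 13 NF-kB subunits, inhibitors and kinases, PTFC against HFD24 on the left and HFD24 against ND on the right, with filled red points for an adjusted p under 0.05. Nfkbie, Relb and Nfkb2 lie above 1 on the right and below -1 on the left, where Relb is not called.

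Of 22 measured NF-kB target genes, 9 were called higher and 1 lower in HFD24 against ND livers (median 0.65), or 45.5% beside 18.3% of all genes. The chemokines Cxcl1 and Ccl2, which draw neutrophils and monocytes, were higher by 4.53 ± 0.30 (limma adjusted p = 2.25e-05) and 4.80 ± 0.36 (5.12e-05), the adhesion molecule Vcam1 by 2.56 (0.00222) and the survival gene Ier3 by 1.63 (0.00234). With PTFC against HFD24 livers 4 were called lower and 2 higher (median -0.72), or 27.3% beside 5.98%, with Cxcl1 at -2.32 ± 0.30 (0.00804) and Ccl2 at -2.66 ± 0.36 (0.00804).

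Of 18 measured genes of the TNF receptor complex and its ubiquitin editing, 2 were called higher and 2 lower in HFD24 against ND livers (median 0.20). That is 22.2% beside 18.3% of all genes, and in PTFC against HFD24 livers it was 5.56% beside 5.98%, both near the background. The kinase Ikbke differed by 1.39 (limma adjusted p = 0.004) and the adaptor Tradd by 0.68 (0.026), and Tab1 and Tab2, which activate the kinase TAK1, by -0.93 (0.0134) and -0.73 (0.0222). Birc3 (cIAP2), a ubiquitin ligase of the complex, was called lower in PTFC against HFD24 livers, at -0.84 (0.0401), and Ikbke was at -0.82 (0.0834).

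Of 14 measured effectors of death receptors, 3 were called higher and none lower in HFD24 against ND livers (median 0.38). This share of 21.4% was near the 18.3% of all genes, and in PTFC against HFD24 livers 7.14% were called beside 5.98%. They were Mlkl and Ripk3, the executor and the kinase of necroptosis, at 2.42 ± 0.32 (limma adjusted p = 0.000662) and 1.50 (0.0143), and Apaf1, the scaffold of the apoptosome, at 1.55 (0.0065). The Fas inhibitor Faim2 was at -0.71 (0.0512). Bid, which carries the death signal to mitochondria, was called lower in PTFC against HFD24 livers, at -0.91 (0.0364).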

How the data were processed

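Liver RNA of 12 samples was measured on single-colour arrays after Trizol extraction, amino-allyl amplification and Cy5 labelling, per the labels' protocols. The authors deposited 1 linear intensity for each of 26423 probes per array. Their background correction and scaling are not given in the sources used here. Among 317076 deposited values 291 were below 0 and were set to 0. The platform table named 21876 probes for 19084 genes, and the probe with the highest mean deposited intensity was kept per gene. Values were quantile normalized as log2(intensity + 1), with a pseudocount of 1, and fitted with limma 3.58.1 in R 4.3.3 (group means over 12 arrays, trend in the prior variance, no replicate block), with Benjamini-Hochberg adjustment over all genes. The fit was tested on simulated data.

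The members, gene lists and tests were chosen with earlier results of these data known. Values per array are given for members called in the main comparisons, for up to 6 called members of each other comparison, and for 13 fixed members. Of a pathway list up to 4 members are named for HFD24 against ND livers and up to 2 for PTFC against HFD24 livers, by smallest p. Same-numbered HFD16 and ND arrays had correlated deviations of 0.12, 0.14 and 0.11 across genes, just above the limit of 0.1 in every pair. The other comparisons did not meet this, with correlations from -0.29 to 0.04, so negative values there were larger in size. The labels give no other basis for a pairing. Alternatives changed the pseudocount, scaling, filter, probe, prior, block, covariate and arrays. Promoters came from a RefSeq table with build GRCm38.p6, which held 45 of the 55 members.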

Additional observations from a re-analysis of the deposited data

How the results depend on the processing

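Over 21 alternatives, Tnfaip3, Tnfrsf11b, Tnfrsf19 and Tnfrsf21 kept their calls in HFD24 against ND livers in each, and Tnfrsf11a in the 20 that included it. Cd40lg, Ltb, Tnfaip2, Tnfaip8 and Tnfaip8l2 kept theirs in all but the fit with the array scaling step as a covariate, a value confounded in part with the diet. The members called there numbered 17 (18.3%), against 6 with that covariate (5.69%) and 11 to 18 with 1 array left out (9.05% to 25.9%). Percentages in parentheses here and below are the shares of all genes called in the same fits. In PTFC against HFD24 livers the 4 members became 2 without normalization (8.67%), 7 with median centring (8.45%) and 1 with the replicate block (1.76%). They became 10 with the covariate (8.68%), 11 with only these 2 groups fitted (9.15%), and 0 to 9 with 1 array left out (0.0576% to 10.3%). In HFD16 against ND livers the 15 became 0 with the covariate (1.15%), 5 with only these 2 groups fitted (12.5%) and 5 to 17 with 1 array left out (6.98% to 23.6%). With the replicate block they were 12 (14.5%), and also 12 in a fit of these 2 groups with the block (16.4%), which was chosen after seeing the data. In PTFC against ND livers the 2 became 1 without normalization (1.84%), without the trend (1.96%) or with the block (1.67%). They became 0 with the covariate (0.283%), 5 with only these 2 groups fitted (2.79%) and 0 to 5 with 1 array left out (0.299% to 3.42%). Cd40 in HFD24 against ND livers reversed to 0.27 with the mean of its probes and 1.33 with its other probe, Cd40 in HFD16 against ND livers to 0.99 and Tnfsf13 in PTFC against HFD24 livers to -0.78 with the other probe. With the block, the calls of Cd40, Fas, Lta and Tnfsf10 in HFD24 against ND livers and of Tnfrsf10b, Tnfrsf19 and Traf1 in PTFC against HFD24 livers were lost. The criterion for pairing was not met in these 2 comparisons. The causes were not tested. All genes called in HFD24 against ND livers numbered 3490, against 1086 with the covariate and 1728 without ND array 1. In PTFC against HFD24 livers they numbered 1142, against 336 with the block, 1747 with 2 groups, 39 without HFD24 array 1 and 11 without PTFC array 3. Of the members, 9 lay in the dimmest 25% of genes, and whether their signal exceeds background was not tested.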

Other observations

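Related genes whose symbols the naming rule leaves out were measured as well, 9 of them. They were Cd27, Cd70, Ngfr, Eda, Edar, Eda2r and Relt, with Edaradd and Litaf, which encode neither a ligand nor a receptor of the family. In HFD24 against ND livers 3 were called higher and none lower, or 33.3% beside 18.3% of all genes: Eda2r, a receptor of ectodysplasin A2, at 1.12 ± 0.22 (limma adjusted p = 0.00424), Relt, a receptor of lymphoid tissue, at 1.51 ± 0.35 (0.0105), and the ligand Eda at 0.81 ± 0.23 (0.0288). In PTFC against HFD24 livers 1 of the 9 was called, or 11.1% beside 5.98% of all genes. This was Relt, lower at -1.49 ± 0.35 (0.0324), and Eda2r was at -0.74 (0.0622). Of 7 measured genes listed for the release of TNF ligands and receptors from membranes, not all of them proteases, 1 was called in HFD24 against ND livers, or 14.3% beside 18.3% of all genes. It was Adam8, higher by 1.78 ± 0.47 (0.0204). It was at -1.65 in PTFC against HFD24 livers (0.0563), where none of the 7 was called by limma. There 3 of the 7 had an unadjusted p under 0.05, beside 4659 of all 19084 genes.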
